A study of Homo sapiens with 36 samples.

Results

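The 10 genes described here encode enzymes that make asparagine, serine, glycine, one-carbon units, proline and phosphoenolpyruvate: ASNS, PHGDH, PSAT1, PSPH, SHMT2, MTHFD2, ALDH1L2, PYCR1, ALDH18A1 and PCK2. They were taken by symbol from a count table of 36601 genes, and each of the 10 symbols had 1 row. Bulk polyA RNA had been sequenced from HEK293, a widely used line of human embryonic kidney cells. The cells came from a library in which a donor construct puts HaloTag, a ligand-binding protein tag, into endogenous genes picked by guide RNAs. The 4 groups were clone 5 with 25 µM HyT36, clone 5 with DMSO, clone 4 with 25 µM HyT36 and clone 4 with DMSO, with 3 libraries each. HyT36 is a hydrophobic HaloTag ligand that is meant to make the tagged protein misfold, and DMSO is its vehicle. Each line is 1 clone of tagged cells, the sources used here do not name the protein tagged in it, and cells without a tag were not among the 12 libraries. A response to the ligand alone therefore cannot be told apart from one that needs the tag. Exposures of 2 and 12 h appear in the labels' protocols, without saying which one the bulk RNA came from. The series holds 36 samples, and the other 24 were not analysed here.

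Cells make serine from a glycolytic intermediate in a short cytosolic pathway, and mitochondria split serine into glycine and a one-carbon unit carried on folate. Asparagine is made from aspartate, and proline from glutamate. Many of these enzymes are textbook targets of ATF4, the transcription factor whose translation goes up in the integrated stress response, when amino acids run short or proteins misfold in the endoplasmic reticulum. ASNS is the best described of them: its promoter holds a nutrient-sensing unit made of a C/EBP-ATF response element (CARE) and a second element a short way downstream.

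The promoter sequences of 5 of the 6 genes that passed the test in at least 1 clone are shown as a description. They are the 100 bases before the RefSeq start site on GRCh38.p14, on the strand of the gene, with matches to the letters TGATGNAA (the CARE) or GTTACA (the second element) in capitals.
ASNS, chr7:97872409-97872508, minus strand: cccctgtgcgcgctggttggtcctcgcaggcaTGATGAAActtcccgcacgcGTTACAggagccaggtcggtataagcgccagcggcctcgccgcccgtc
PHGDH, chr1:119711834-119711933, plus strand: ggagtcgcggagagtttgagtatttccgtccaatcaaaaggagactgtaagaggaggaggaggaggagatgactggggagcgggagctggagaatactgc
PSAT1, chr9:78297025-78297124, plus strand: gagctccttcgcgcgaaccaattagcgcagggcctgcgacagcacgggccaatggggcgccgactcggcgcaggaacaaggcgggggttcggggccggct
MTHFD2, chr2:74198515-74198614, plus strand: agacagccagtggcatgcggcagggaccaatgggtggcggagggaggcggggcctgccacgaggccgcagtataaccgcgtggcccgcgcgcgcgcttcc
PCK2, chr14:24094211-24094310, plus strand: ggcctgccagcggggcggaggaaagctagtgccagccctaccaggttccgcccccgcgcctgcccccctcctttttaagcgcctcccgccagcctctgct

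Both strands were searched over windows of 250 bases before to 50 after the start, which RefSeq's table gave for 6 of the 10 genes (ASNS with 2 starts, PHGDH, PSAT1, MTHFD2, ALDH18A1 and PCK2). Of these 7 windows, only that of the upstream ASNS start held either motif. Its CARE began at base -68 and its second element at base -48, and the motifs did not overlap. The CARE was present in 3.62% of all 35116 promoter windows and the second element in 6.66%. The other genes are PSPH (chromosome 7, 56011064 to 56051444), SHMT2 (chromosome 12, 57229711 to 57234935), ALDH1L2 (chromosome 12, 105019790 to 105084458) and PYCR1 (chromosome 17, 81932391 to 81937300). A match in letters is a description of the sequence, and its absence from this window says nothing of sites elsewhere. Whether a motif goes with the size of a response was not tested.

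Libraries held 22853946 to 28635511 gene counts, and all 10 genes passed the filter on low counts that left 14892 genes for the tests. CPM are reads scaled to library size, by TMM except for the markers in this paragraph, which were scaled to gene counts alone. Vimentin (VIM, 151 to 230 CPM) and the kidney factors PAX2 (11.8 to 14.8 CPM) and LHX1 (11.3 to 19.1 CPM) were present in every library. Of the intermediate filament genes of neurons, INA had 2.09 to 6.16 CPM and NEFL and NEFM were at or near 0. Blood markers were at or near 0 (PTPRC up to 0.115 CPM), and ALB, the liver gene for albumin, lay between 9.54 and 125 CPM. The libraries fell into 2 sets of 6 by epithelial transcripts. The summed level of 10 epithelial markers was 126 to 262 CPM in one set and 43.4 to 73.2 CPM in the other, and KRT19, a keratin, was at 33 to 70.5 CPM against 0.0419 to 0.231 CPM. KRT19 is also 1 of the 4 genes that define the split. Of the 10 markers, 6 did not overlap between the sets and 4 did (KRT18, CDH1, ESRP1 and ELF3), such as CDH1 at 0.181 to 0.982 CPM against 0.21 to 0.569 CPM. In clone 5 the 3 HyT36 libraries were all low and the 3 DMSO libraries all high, so that epithelial transcripts and treatment cannot be told apart there. In clone 4, HyT36 libraries 2 and 3 and DMSO library 1 were high, and HyT36 library 1 and DMSO libraries 2 and 3 were low, so both sets held both treatments.

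In clone 5, HyT36 went with higher ASNS, MTHFD2 and PHGDH, and the other 7 genes did not pass the test. In clone 4 it went with higher ASNS, PCK2, MTHFD2, PHGDH, SHMT2 and PSAT1, and the other 4 did not pass. ASNS stood apart in size, at 2.01 times its DMSO mean in clone 5 and 4.87 times in clone 4, whereas the other rises that passed the test lay between 8.53% and 24%. The 3 of 10 genes called higher in clone 5 compare with 3.35% of all tested genes called higher and 8.19% called in either direction. The 6 of 10 in clone 4 compare with 2.21% called higher and 5.57% called in either direction. The median log2 change of the 10 genes was 0.06 in clone 5 and 0.14 in clone 4, against a median over all tested genes of -0.00 in clone 5 and 0.00 in clone 4. Every HyT36 library lay above every DMSO library for 4 genes in clone 5 and for 8 in clone 4, which 11.4% of all tested genes did in clone 5 and 11.7% in clone 4. In bulk RNA, a change in how many cells express a gene and a change in RNA per cell cannot be told apart.

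**Figure D1:**
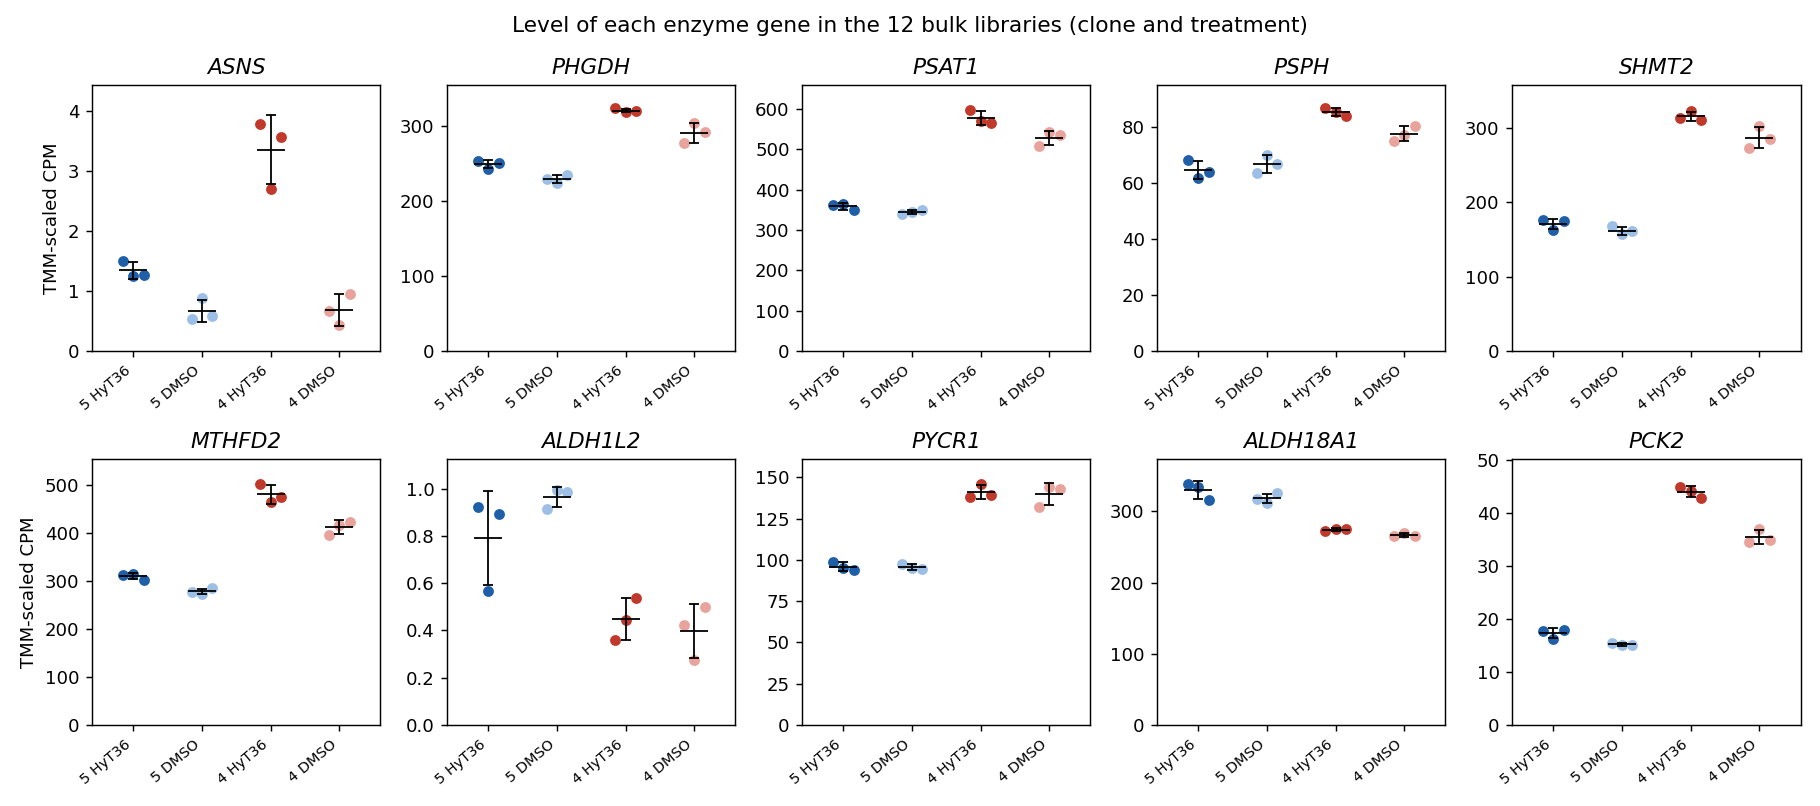
Level of each of the 10 enzyme genes in every bulk library, as TMM-scaled CPM on axes that start at 0, for clone 5 with HyT36, clone 5 with DMSO, clone 4 with HyT36 and clone 4 with DMSO. Points are libraries, and bars give the mean and SD of 3. ASNS is the only panel in which the HyT36 mean is over 2 times the DMSO mean (2.01 times in clone 5, 4.87 times in clone 4), and 7 panels (PHGDH, PSAT1, PSPH, SHMT2, MTHFD2, PYCR1 and PCK2) sit lower in clone 5 than in clone 4.

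ASNS (ENSG00000070669), asparagine synthetase, transfers an amino group from glutamine to aspartate. It had 1.51, 1.26 and 1.27 CPM in clone 5 with HyT36, against 0.542, 0.883 and 0.583 CPM in clone 5 with DMSO. It had 3.79, 2.7 and 3.58 CPM in clone 4 with HyT36, against 0.677, 0.432 and 0.957 CPM in clone 4 with DMSO. The libraries of HyT36 and DMSO did not overlap in either clone, and both DMSO groups sat at about the same level. The log2 fold change was 1.00 ± 0.29 (SE, edgeR adjusted p = 0.024) in clone 5 and 2.28 ± 0.27 (adjusted p = 1.1e-07) in clone 4.

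The level of ASNS rested on few reads: 36, 29 and 30 in clone 5 with HyT36, 13, 24 and 16 in clone 5 with DMSO, 105, 73 and 93 in clone 4 with HyT36 and 16, 11 and 23 in clone 4 with DMSO. On GRCh38.p14 the gene (chromosome 7, 97851677 to 97928441) shares 76325 bases with a read-through RNA on the same strand, CZ1P-ASNS, and the table counts ambiguous reads apart from genes, at 6.75 to 7.15% of all its counts. How many of those came from ASNS was not tested. Leaving out clone 5 DMSO library 1, DMSO library 3 or HyT36 library 1 ended the clone 5 call (edgeR adjusted p = 0.12, 0.09 and 0.094), while in clone 4 the call held without any 1 library. With all libraries, limma-voom did not call ASNS in clone 5 (log2 1.01, limma-voom adjusted p = 0.068), and DESeq2 gave it no adjusted p.

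The serine pathway runs through PHGDH (ENSG00000092621), phosphoglycerate dehydrogenase, which takes the first step from 3-phosphoglycerate, then PSAT1 (ENSG00000135069), the aminotransferase, and PSPH (ENSG00000146733), the phosphatase that releases serine. PHGDH had 253, 243 and 250 CPM in clone 5 with HyT36, against 229, 224 and 234 CPM in clone 5 with DMSO. It had 323, 318 and 320 CPM in clone 4 with HyT36, against 277, 303 and 291 CPM in clone 4 with DMSO. Its groups did not overlap in either clone, and the rises of 8.53% in clone 5 (log2 0.12 ± 0.04, SE, edgeR adjusted p = 0.041) and 10.4% in clone 4 (log2 0.14 ± 0.04, adjusted p = 0.013) were small. PSAT1 had 363, 364 and 349 CPM in clone 5 with HyT36, against 341, 346 and 351 CPM with DMSO, which overlapped. Its clone 4 libraries had 598, 570 and 565 CPM with HyT36, against 509, 544 and 535 CPM with DMSO. That rise of 9.19% in clone 4 passed the test (log2 0.13 ± 0.04, edgeR adjusted p = 0.026), and the difference of 3.53% in clone 5 did not (adjusted p = 0.5). PSPH averaged 64.7 ± 3.21 CPM in clone 5 with HyT36 and 66.7 ± 3.19 CPM with DMSO, and 85.3 ± 1.44 CPM in clone 4 with HyT36 and 77.6 ± 2.74 CPM with DMSO (SD, n = 3 each). Its clone 4 libraries did not overlap but missed the threshold (log2 0.14 ± 0.05, edgeR adjusted p = 0.074), and its clone 5 difference had an interval of -0.14 to 0.05 on the log2 scale.

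The next 3 enzymes work on folate in mitochondria. SHMT2 (ENSG00000182199), serine hydroxymethyltransferase, splits serine into glycine and a one-carbon unit. It had 176, 163 and 175 CPM in clone 5 with HyT36, against 168, 157 and 162 CPM with DMSO, which overlapped (log2 0.08 ± 0.04, edgeR adjusted p = 0.3). In clone 4 it had 314, 323 and 311 CPM with HyT36, against 273, 302 and 285 CPM with DMSO, with no overlap and a rise of 10.2% (log2 0.14 ± 0.04, adjusted p = 0.024). MTHFD2 (ENSG00000065911), a methylenetetrahydrofolate dehydrogenase and cyclohydrolase, oxidises that unit. It had 313, 314 and 302 CPM in clone 5 with HyT36, against 276, 273 and 285 CPM with DMSO. In clone 4 it had 502, 464 and 475 CPM with HyT36, against 395, 417 and 422 CPM with DMSO. MTHFD2 rose by 11.5% in clone 5 (log2 0.16 ± 0.04, edgeR adjusted p = 0.0052) and by 16.7% in clone 4 (log2 0.22 ± 0.04, adjusted p = 7.0e-05), with no overlap in either clone. ALDH1L2 (ENSG00000136010), which oxidises formyl-tetrahydrofolate, had only 13 to 22 reads per library in clone 5 with HyT36, 22 to 27 with DMSO, 10 to 14 in clone 4 with HyT36 and 7 to 12 with DMSO. Its intervals were wide, -0.98 to 0.42 in clone 5 and -0.66 to 1.00 in clone 4 on the log2 scale, so a change up to about that size was not detectable at this depth.

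Neither enzyme of proline synthesis passed the test in either clone. ALDH18A1 (ENSG00000059573), which makes the semialdehyde precursor from glutamate, averaged 330 ± 12.3 CPM in clone 5 with HyT36 and 318 ± 6.68 CPM with DMSO, and 274 ± 2.02 CPM in clone 4 with HyT36 and 267 ± 2.8 CPM with DMSO (SD, n = 3 each). PYCR1 (ENSG00000183010), the mitochondrial reductase that completes proline, averaged 95.9 ± 2.66 CPM in clone 5 with HyT36 and 95.7 ± 1.64 CPM with DMSO, and 141 ± 4.31 CPM in clone 4 with HyT36 and 140 ± 6.61 CPM with DMSO. The intervals of the PYCR1 change were -0.08 to 0.09 in clone 5 and -0.07 to 0.10 in clone 4 on the log2 scale. Those of ALDH18A1 were -0.02 to 0.12 in clone 5 and -0.03 to 0.11 in clone 4.

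PCK2 (ENSG00000100889), the mitochondrial phosphoenolpyruvate carboxykinase, turns oxaloacetate into phosphoenolpyruvate. It had 17.8, 16.3 and 18 CPM in clone 5 with HyT36, against 15.4, 15.1 and 15 CPM with DMSO. Clone 4 had 44.9, 44.2 and 42.9 CPM with HyT36, against 34.5, 37 and 34.9 CPM with DMSO. The groups did not overlap in either clone, and the change was 0.20 ± 0.07 on the log2 scale in clone 5 (SE, edgeR adjusted p = 0.077) and 0.31 ± 0.06 in clone 4 (adjusted p = 7.1e-04), so that the 24% rise in clone 4 passed the test and the 14.6% difference in clone 5 did not. PCK2 lies wholly within the span of NRL on the opposite strand. NRL had 11 to 33 reads per library, against 370 or more for PCK2, and the sources used here do not state how the counting treated strand.

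**Figure D2:**
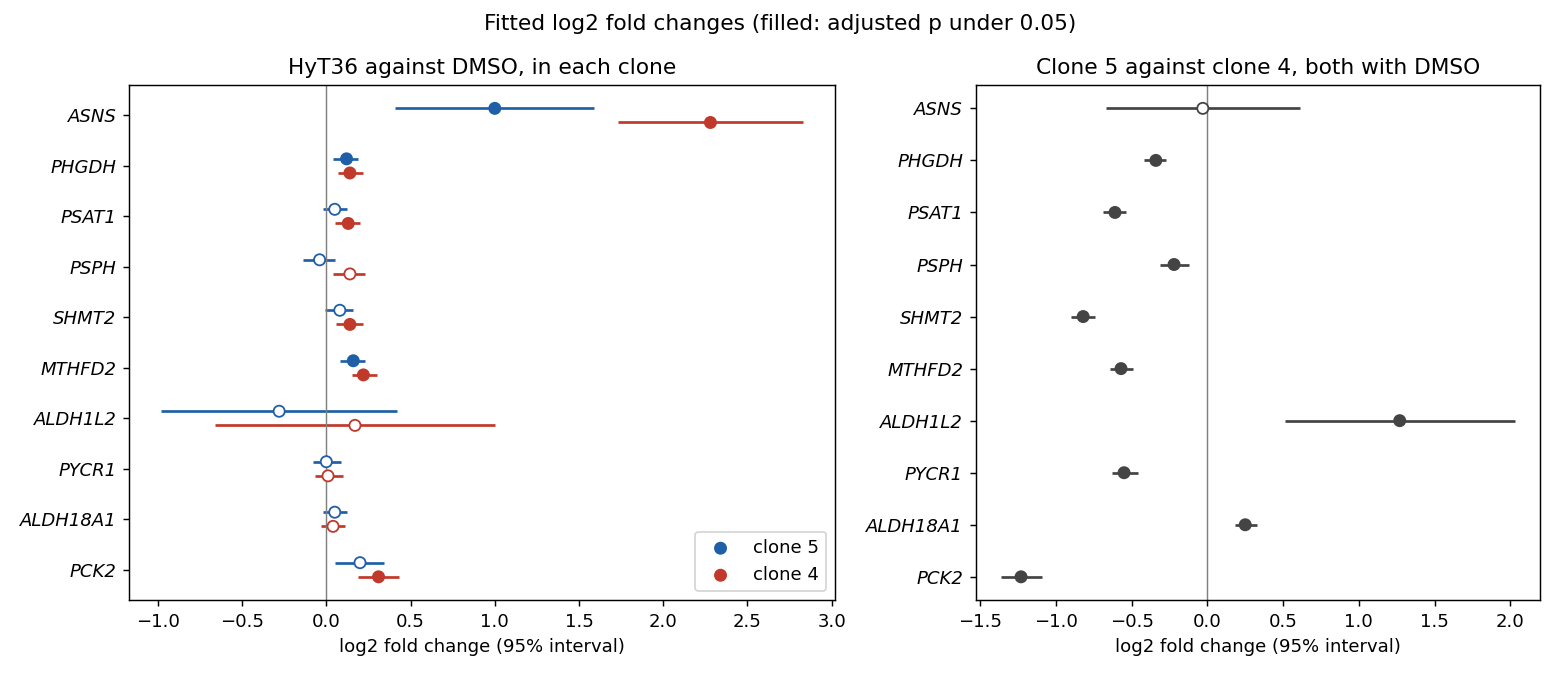
Fitted log2 fold changes of the 10 genes with 95% intervals. Left, HyT36 against DMSO in clone 5 and clone 4; right, clone 5 against clone 4, both with DMSO. Filled points have an adjusted p under 0.05 (edgeR); ASNS lies at 1.00 and 2.28 on the left and near 0 on the right, where PCK2 is lowest at -1.23.

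The epithelial split moved with treatment in clone 5 only. Within groups it varied in clone 4 alone, so as a covariate its effect was estimated there and applied to clone 5. Calls kept or lost in clone 5 with this covariate therefore do not separate the split from the treatment. With the split as a covariate, none of the 10 genes passed the test in clone 5: the log2 change was 0.79 for ASNS (edgeR adjusted p = 0.29), 0.06 for MTHFD2 (0.57) and 0.06 for PHGDH (0.64). DESeq2 called 2 genes there without the covariate and limma-voom 1, and ASNS was among neither. In clone 4 the same covariate left the 6 calls in place and added PSPH (adjusted p = 0.043). Within the high libraries of clone 4, ASNS had 2.7 and 3.58 CPM with HyT36 against 0.677 CPM with DMSO, and within the low ones 3.79 CPM with HyT36 against 0.432 and 0.957 CPM with DMSO.

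Among the small rises, some calls were lost when 1 library was left out, in fits with fewer libraries, while the log2 changes stayed at 0.11 to 0.14 for PHGDH in clone 5, and at 0.11 to 0.18 for PHGDH, 0.10 to 0.15 for PSAT1 and 0.11 to 0.18 for SHMT2 in clone 4. In clone 5, the PHGDH call was lost without DMSO library 1 or 2, without HyT36 library 1 or 3, or without clone 4 HyT36 library 2 (edgeR adjusted p = 0.11, 0.17, 0.13, 0.08 and 0.059), and the MTHFD2 call was kept without any 1 library. In clone 4, the PHGDH call was lost without DMSO library 1, HyT36 library 1 or HyT36 library 3 (0.083, 0.059 and 0.065). The PSAT1 and SHMT2 calls there were lost without any 1 of DMSO libraries 1 and 3 and the 3 HyT36 libraries (0.054 to 0.17 for PSAT1 and 0.062 to 0.14 for SHMT2), and those of PCK2 and MTHFD2 were kept.

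Whether the response differed between the clones was tested as the clone 5 change minus the clone 4 change. None of the 10 genes passed the test in edgeR, DESeq2 or limma-voom, and 0.302% of all tested genes did in edgeR. Their median difference was -0.07 on the log2 scale, against -0.01 over all tested genes. ASNS differed by -1.29 ± 0.40 (SE, interval -2.10 to -0.47, unadjusted p = 0.0029, edgeR adjusted p = 0.25), and PSPH by -0.18 ± 0.07 (unadjusted p = 0.0091, adjusted p = 0.38). These 2 were the genes with an unadjusted p under 0.05, as 1192 of all 14892 tested genes had.

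The clones were then compared without ligand. Clone 5 had lower levels of 7 of the 10 genes (PCK2, SHMT2, PSAT1, MTHFD2, PYCR1, PHGDH and PSPH), higher levels of ALDH18A1 and ALDH1L2, and no detectable difference in ASNS. The background was high: 28.2% of all tested genes were called lower in clone 5, 27.3% higher and 55.5% in either direction. The median of the 10 genes was -0.44 on the log2 scale, against 0.00 over all tested genes.

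PCK2 averaged 15.2 ± 0.212 CPM in clone 5 with DMSO and 35.5 ± 1.36 CPM in clone 4 with DMSO (SD, n = 3 each), a log2 difference of -1.23 ± 0.07 (SE, edgeR adjusted p = 2.0e-19). SHMT2 averaged 162 ± 5.52 CPM in clone 5 and 287 ± 14.3 CPM in clone 4, a difference of -0.82 ± 0.04 (adjusted p = 9.3e-21). These were the lowest ratios of the 10, at 0.428 for PCK2 and 0.566 for SHMT2. The fitted difference was -34.6% for PSAT1, -32.5% for MTHFD2 and -31.5% for PYCR1 (edgeR adjusted p = 5.0e-18, 1.7e-16 and 1.3e-14). PHGDH and PSPH followed with -21.1% and -13.9% (edgeR adjusted p = 2.6e-10 and 1.4e-04). In each of these 7 genes, the 3 clone 5 libraries lay below the 3 clone 4 libraries. The share of all tested genes that did so was not counted, and 28.2% of them were called lower in clone 5.

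ALDH18A1 was higher in clone 5, with 317, 312 and 326 CPM in clone 5 with DMSO and 265, 270 and 265 CPM in clone 4 with DMSO (log2 0.25 ± 0.04, edgeR adjusted p = 1.2e-07). Both enzymes of proline synthesis thus differed between the clones, in opposite directions. ALDH1L2 had 22, 27 and 27 reads in clone 5 and 10, 7 and 12 in clone 4, a log2 difference of 1.27 ± 0.38 (adjusted p = 0.0043). That call was lost with the epithelial split as a covariate (edgeR adjusted p = 0.051), and the other 8 calls held. The clone 5 DMSO libraries were all high, and of the clone 4 DMSO libraries only library 1 was. The covariate's effect was estimated in clone 4 alone, so this fit cannot fully separate the split from the clone. Within the high libraries alone the log2 difference of ALDH1L2 was 1.19, in a fit that rested on 1 clone 4 DMSO library. ASNS averaged 0.669 ± 0.186 CPM in clone 5 with DMSO and 0.689 ± 0.263 CPM in clone 4 with DMSO, and its interval of -0.67 to 0.61 on the log2 scale leaves a difference of that size undetected.

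Several of the enzymes have close relatives that do related chemistry in another compartment or with another cofactor, and reads of enzyme and relative were compared within a library. SHMT2 had 1.97 ± 0.0973 reads for each read of SHMT1, its cytosolic counterpart, in clone 5 with HyT36 and 1.94 ± 0.0498 with DMSO. In clone 4 that ratio was 3.32 ± 0.142 with HyT36 and 3.22 ± 0.141 with DMSO (SD, n = 3 each). The ratio of MTHFD2 to MTHFD1, the cytosolic trifunctional enzyme, was 0.878 ± 0.0143 in clone 5 with HyT36 and 0.893 ± 0.0148 with DMSO, which overlapped, and 1.4 ± 0.0529 in clone 4 with HyT36 and 1.29 ± 0.02 with DMSO, which did not. With 3 libraries against 3, an exact two-sided permutation test cannot go below p = 0.1. MTHFD1 itself rose in clone 5 (log2 0.18 ± 0.04, edgeR adjusted p = 9.2e-04, and 0.1 with the epithelial split as a covariate) and did not pass in clone 4 (0.10 ± 0.04, adjusted p = 0.097).

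MTHFD2 exceeded MTHFD2L, a related mitochondrial enzyme, by 21.9 ± 2.25 reads to 1 in clone 5 with HyT36 and 20.4 ± 0.133 with DMSO, and by 41.2 ± 1.2 in clone 4 with HyT36 and 37.2 ± 2.5 with DMSO. The clone 4 ratios of this pair did not overlap, but only barely: the lowest with HyT36 and the highest with DMSO both round to 40. PYCR1 had 4.04 ± 0.1 reads for each read of PYCR3, a related reductase, in clone 5 with HyT36 and 3.91 ± 0.0183 with DMSO, and 4.94 ± 0.222 in clone 4 with HyT36 and 4.68 ± 0.201 with DMSO. In clone 5 these ratios did not overlap either (4.15, 3.96 and 4 with HyT36, against 3.92, 3.89 and 3.92 with DMSO), although neither PYCR1 nor PYCR3 passed the test there. SHMT1, MTHFD2L and PYCR3 did not pass the test in either ligand response. ALDH1L1, the cytosolic counterpart of ALDH1L2, had 4 to 32 reads per library, and PCK1, the cytosolic carboxykinase, had 0 to 5. All these ratios are of reads, not of transcripts per length.

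**Figure D3:**
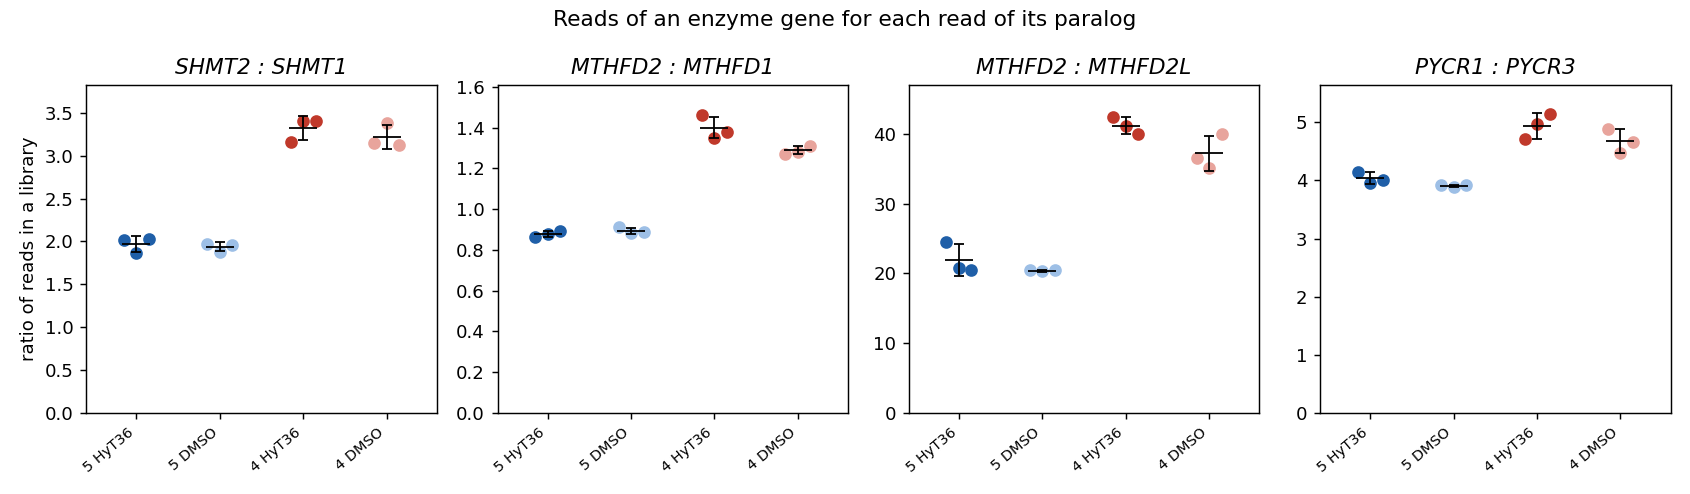
Reads of an enzyme gene for each read of its paralog in every library, on axes that start at 0, with the mean and SD of 3. Each of the 4 ratios is higher in the clone 4 groups than in the clone 5 groups. HyT36 libraries lie above the DMSO libraries without overlap for MTHFD2 to MTHFD1 in clone 4 and for PYCR1 to PYCR3 in clone 5. They also do so, barely, for MTHFD2 to MTHFD2L in clone 4, where the closest HyT36 and DMSO ratios both round to 40.

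Genes next to these enzymes in metabolism were counted in the same way. Of 19 other serine, glycine and folate genes, 2 rose and 2 fell in clone 5 and 1 rose in clone 4, where 8.19% of all tested genes were called in clone 5 and 5.57% in clone 4. The clone 4 count is near that background, and limma-voom called 0 of the 19 there. MTHFD1L, the mitochondrial enzyme that releases formate, rose in both clones, by 10.8% in clone 5 (edgeR adjusted p = 0.012) and 9.18% in clone 4 (adjusted p = 0.042). Its call was lost in 3 of 19 alternatives in clone 5 (without DMSO library 2 at 0.072, without HyT36 library 2 at 0.062, with the epithelial split as a covariate at 0.22) and in 11 of 21 in clone 4 (adjusted p up to 0.76). The genes that fell in clone 5 were SLC19A1, the reduced folate carrier (log2 -0.28 ± 0.05, adjusted p = 2.8e-04), and SLC25A32, the mitochondrial folate carrier (-0.24 ± 0.06, adjusted p = 0.0044, and 0.097 without HyT36 library 1). The median log2 change of that list was 0.01 in clone 5 and 0.03 in clone 4.

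Among 8 tested genes of the methionine cycle and transsulfuration, 1 fell in clone 5, and 1 rose and 1 fell in clone 4. Of all tested genes, 8.19% were called in clone 5 and 5.57% in clone 4. MAT2A, the methionine adenosyltransferase that makes S-adenosylmethionine, had 182, 185 and 192 CPM in clone 5 with HyT36, against 282, 281 and 293 CPM with DMSO. The clone 4 libraries had 300, 286 and 285 CPM with HyT36, against 363, 346 and 369 CPM with DMSO. MAT2A thus fell in both clones, with a log2 change of -0.61 ± 0.04 in clone 5 (edgeR adjusted p = 3.1e-15) and -0.31 ± 0.04 in clone 4 (adjusted p = 1.1e-07). CTH, which makes cysteine from cystathionine, averaged 24.6 ± 1.23 CPM in clone 5 with HyT36 and 23.9 ± 0.726 CPM with DMSO. It averaged 39.9 ± 1.39 CPM in clone 4 with HyT36 and 30 ± 0.847 CPM with DMSO, and rose there (log2 0.41 ± 0.06, adjusted p = 1.0e-05). The difference between those CTH responses, -0.37 ± 0.09, missed the threshold (adjusted p = 0.051).

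Of 15 tested genes of proline, glutamate, glutamine and aspartate metabolism, none was called in clone 5 by edgeR, DESeq2 or limma-voom (2 had an unadjusted p under 0.05), and 1, the aspartate aminotransferase GOT1, rose in clone 4 (log2 0.15 ± 0.04, edgeR adjusted p = 0.027). Of 8 tested genes of gluconeogenesis and anaplerosis, none was called in clone 5 by edgeR or limma-voom and 2 by DESeq2 (2 had an unadjusted p under 0.05), and 1, the malate dehydrogenase MDH1, rose in clone 4 (log2 0.12 ± 0.04, adjusted p = 0.046). None of 8 genes of purine synthesis, which uses formyl-tetrahydrofolate, was called by edgeR or limma-voom in either clone. An unadjusted p under 0.05 was seen for 1 of them in clone 5 and 4 in clone 4, and DESeq2 called 1 in clone 5 and 2 in clone 4. Of all 14892 tested genes, 2976 had an unadjusted edgeR p under 0.05 in clone 5 and 2753 in clone 4. The share of all tested genes called by edgeR in either direction was 8.19% in clone 5 and 5.57% in clone 4. The cytosolic aminoacyl-tRNA synthetases, which charge tRNAs and include known ATF4 targets, had 3 of 20 genes higher in clone 5 and 4 of 20 in clone 4, beside 3.35% and 2.21% of all tested genes called higher in those clones. AARS1 and EPRS1 were called in both clones, LARS1 in clone 5, and GARS1 and VARS1 in clone 4. EPRS1 had the largest of these changes in each clone, 0.22 ± 0.04 in clone 5 (adjusted p = 1.5e-04) and 0.16 ± 0.04 in clone 4 (adjusted p = 0.008). Of the named calls, those of MAT2A in both clones, SLC19A1 and EPRS1 in clone 5 and CTH in clone 4 held under every alternative run, 19 in clone 5 and 21 in clone 4. In clone 5, AARS1 lost its call with the epithelial split as a covariate (adjusted p = 0.25), and LARS1 there (0.37) and without DMSO library 1, DMSO library 2 or HyT36 library 2 (0.076, 0.056 and 0.05). In clone 4, GARS1 was called in 9 of 21 alternatives, MDH1 in 8, VARS1 in 13, GOT1 in 15, and AARS1 and EPRS1 in 18 each.

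**Figure D4:**
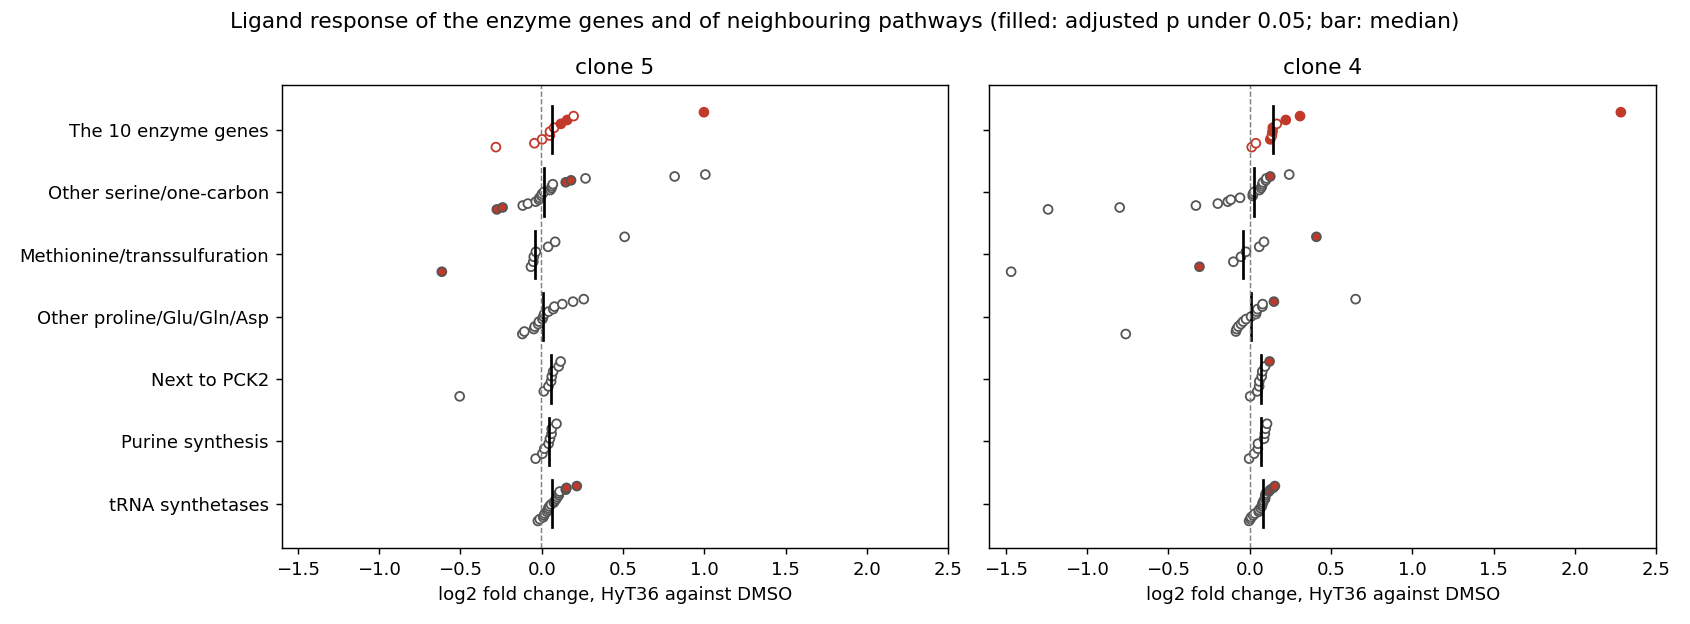
Log2 fold change with HyT36 against DMSO of the 10 enzyme genes and of 6 lists of neighbouring pathways, in clone 5 and clone 4. Each point is a tested gene, filled where the adjusted p is under 0.05 (edgeR), each bar is the median of a list, and the dashed line is the median of all tested genes. ASNS lies at 1.00 in clone 5 and 2.28 in clone 4, and MAT2A is the lowest filled point in both.

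Among 11667 genes compared, those whose log2 CPM followed ASNS most closely over the 12 libraries were DNAJB1 (Pearson r = 0.97), HERPUD1 (0.95), TSC22D3 (0.95), ZNF277 (0.95) and SNN (0.94). DNAJB1 is a cytosolic co-chaperone and HERPUD1 a component of endoplasmic-reticulum-associated degradation. HERPUD1 changed by 0.63 in clone 5 and 1.06 in clone 4 on the log2 scale, and TSC22D3 by 0.31 in clone 5 and 1.04 in clone 4. The genes closest to the mean of the 10 enzymes were CTH (r = 0.98), HSPA1A (0.97), FLRT2 (0.97), NUDT14 (0.97) and STC2 (0.96), each lower in clone 5 than in clone 4 without ligand, by -0.33, -0.54, -0.34, -0.48 and -0.68 on the log2 scale. That mean is not a pattern shared by all 10 enzymes. With the enzyme genes lower in clone 5 without ligand, ALDH1L2 and ALDH18A1 correlated at -0.94 to -0.70, and ASNS at 0.34 to 0.59. HSPA1A may share reads with its near-identical copy HSPA1B. These correlations span both clones and both treatments, so the 12 points share the group differences described above, and they are a description with no test.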

How the data were processed

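Bulk RNA was measured in 12 libraries, per the labels' protocols from polyA-selected RNA. Per the file headers, the authors deposited whole-number read counts for 36601 genes in 1 table, unscaled, beside 22344 guides and 4 summary entries. The submitters' processing notes list GRCh38 and Cell Ranger 7 without saying what either did for bulk RNA. No aligner, annotation or strand setting is named in the sources used here. Guides (0.00831 to 0.0125% of counts) and summary entries stayed out of library sizes and tests. All 12 columns were matched to samples by name.

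Counts were tested with edgeR 4.0.16 (R 4.3.3): filterByExpr by group, TMM scaling, 1 fit of all 12 libraries with a mean per group and 8 residual degrees of freedom, and two-sided robust quasi-likelihood F-tests. P-values were adjusted by Benjamini-Hochberg across all 14892 tested genes and called under 0.05. Each SE was approximated from the log2 change and its F statistic. CPM are TMM-scaled reads, except those of the cell type markers and of the epithelial split, which were scaled to gene counts without TMM. Levels were not compared between genes because transcript lengths were not used here. Whether replicates came from separate cultures is not in the labels; p-values then reflect the spread of these libraries alone, which may be technical. The code was tested on simulated counts.

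The 10 genes, the lists and the rule for named genes were chosen with earlier results of these data known. The rule names all 10 genes, up to 6 genes past the threshold in either ligand response from each neighbouring list, the paralogs (1 is not reported here), and the 5 genes most correlated over 12 libraries with ASNS and with the mean of the 10, among genes averaging 1 or more on the log2 CPM scale (prior count 2). Alternatives were RLE scaling, DESeq2 1.42.0, limma-voom (limma 3.58.1), no filter, a replicate block, groups fitted alone, leaving out each library, and the split by epithelial transcripts, made at the largest gap in the summed CPM of KRT19, EPCAM, ESRP1 and ELF3.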

Additional observations from a re-analysis of the deposited data

Results flagged for a closer look

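MAT2A, which makes S-adenosylmethionine, fell with HyT36 in both clones, and its fall differed between them. The clone 5 change minus the clone 4 change was -0.31 ± 0.05 on the log2 scale (SE, interval -0.41 to -0.20, edgeR adjusted p = 0.0016 over all tested genes). The change itself was -0.61 in clone 5 and -0.31 in clone 4, and the 3 HyT36 libraries lay below the 3 DMSO libraries in each clone. In the 18 alternatives the difference lay between -0.34 and -0.27 and its highest adjusted p was 0.02. In clone 5 all DMSO libraries and no HyT36 library carried the higher level of epithelial transcripts. With that split as a covariate the difference was -0.34 (edgeR adjusted p = 0.0034). Only the clone 4 groups held both sets, so the covariate's effect was estimated in clone 4 and applied to clone 5. This fit therefore cannot separate the split from the treatment in clone 5.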

How the results depend on the processing

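The number of the 10 genes called in clone 5, 3 in all libraries, was 1 with limma-voom and 0 with the epithelial split as a covariate, and 1 to 4 when each library was left out. It was 1 without DMSO library 1 or HyT36 library 1. In clone 4 the number was 3 in the 6 libraries with few epithelial transcripts and 3 to 6 when each library was left out, against 6. It was 3 without DMSO library 1, HyT36 library 1 or HyT36 library 3. ASNS, MTHFD2 and PCK2 were called in clone 4 under every alternative that gave an adjusted p. DESeq2 gave none for ASNS in either ligand response. The count of all tested genes called in clone 5 was 776 with the split as a covariate and 755 to 1618 with 1 library left out, against 1219. In clone 4 it was 287 in the libraries with few epithelial transcripts and 409 to 851 with 1 library left out, against 830. For the difference between the responses it was 12 with limma-voom, 169 without a filter, 244 with the split as a covariate and 25 to 140 with 1 library left out, against 45. None of the 10 genes passed the test of that difference under any alternative. The clone comparison called 8 or 9 of the 10 under every alternative. Apart from fits with fewer libraries, the cause of these moves was not tested. No called change of a named gene turned its sign. ASNS and ALDH1L2 are limited by their few reads, and in clone 5 the split cannot be told apart from the treatment. The libraries with few epithelial transcripts could give only the clone 4 response, and those with more only the clone 4 response and the clone comparison. Each of these fits rested on 1 library of a clone 4 group, HyT36 among those with few and DMSO among those with more.

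With a replicate block, the paired fit called 2 of the 10 genes in clone 5 and 5 in clone 4, 0 for the difference and 9 between the clones, with 1083, 715, 43 and 8093 of all tested genes. The named calls lost with the block were PHGDH in clone 5 (adjusted p = 0.073) and PSAT1, MTHFD1L, MDH1, VARS1 and GARS1 in clone 4 (0.054, 0.069, 0.079, 0.06 and 0.07). Libraries with the same number did not deviate together (correlations of -0.0276, -0.0418 and -0.00947 in clone 5 and -0.541, -0.25 and -0.26 in clone 4). In clone 4, however, same-numbered libraries always lay in opposite epithelial sets, and HyT36 and DMSO libraries of the same set correlated at 0.351 to 0.423. No sign of pairing by number was seen, but with 3 libraries per group these correlations cannot exclude it.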
